A study of Mus musculus with 10 samples.

Results

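Extracellular adenosine acts on sensory neurons through 4 receptors, and the amount of it depends on enzymes at the cell surface that break ATP down step by step. The genes described here were these receptors and enzymes, namely the receptors *Adora1*, *Adora2a*, *Adora2b* and *Adora3*, the AMP-hydrolysing enzymes *Nt5e* and *Acpp* (newer symbol *Acp3*), the ATP- and ADP-hydrolysing enzymes *Entpd1*, *Entpd2* and *Entpd3*, and *Ada*, which removes adenosine. They were chosen by name, and all 10 were found among the 55414 Ensembl genes counted in each library. *Adora1* is the member that the study lists as lower in these same libraries, so its direction here is not independent evidence.

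Dorsal root ganglia (DRG), which hold the cell bodies of somatosensory neurons together with their glia, were collected at E18.5, shortly before birth, from 5 *WD1* cKO embryos (*Wnt1*Cre/+; *Dach1* flox/flox) and 5 littermate controls, and their RNA was sequenced in bulk, 1 library per embryo. In *WD1* cKO embryos, Cre made under *Wnt1* regulatory sequence in the neural crest, the source of DRG neurons and glia, deletes the floxed exon of *Dach1*, a transcription factor gene. The *Dach1* flox line was kept on a mixed C57Bl/6J and CD1 background, and the alleles of the control embryos are not settled by the labels, whose genotype field runs against the sample titles (control libraries carry Wnt1Cre/+Dach1 flox/flox and the libraries titled Wnt1-Cre carry Wnt1+/+Dach1 flox/flox). Groups were therefore taken from the sample titles, and the level of *Dach1* was lower in all 5 libraries titled Wnt1-Cre, at 19.1 to 20.8 CPM (counts scaled to library size with edgeR's TMM factors), than in all 5 control libraries, at 35.1 to 41.6 CPM.

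Control libraries held 20465132 to 27528784 counts and *WD1* cKO libraries 19757596 to 34796562, and 17490 genes that reached 10 counts in 5 or more libraries were tested. Markers of the tissue were present in every library. The summed level of 5 pan-neuronal genes was 3096 ± 115 CPM (SD, n = 5) in control and 3021 ± 79.1 CPM (SD, n = 5) in *WD1* cKO embryos, and that of 7 Schwann cell and satellite glia genes was 1086 ± 68.4 CPM (SD, n = 5) and 1126 ± 112 CPM (SD, n = 5). Libraries with the replicate numbers 4 and 5 stood apart from those with the numbers 1 to 3 in both groups. This split, known from earlier results of these data, has no name in the labels, and values within each set of numbers are therefore given beside the pooled ones. Markers of blood differed between the sets in both groups. The 6 genes summed to 1074 to 2471 CPM in control replicates 1 to 3, 155 and 183 CPM in control replicates 4 and 5, 510 to 1137 CPM in *WD1* cKO replicates 1 to 3, and 189 to 243 CPM in *WD1* cKO replicates 4 and 5, with means of 1104 ± 988 CPM (SD, n = 5) in control and 556 ± 385 CPM (SD, n = 5) in *WD1* cKO embryos.

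As background, ATP that leaves neurons, glia or damaged cells is cut to ADP and AMP by ectonucleoside triphosphate diphosphohydrolases (*Entpd* genes), and AMP is cut to adenosine by ecto-5′-nucleotidase (*Nt5e*, CD73) and by the transmembrane form of prostatic acid phosphatase (*Acpp*), both of which are known from nociceptive neurons. *Adora1* and *Adora3* encode receptors that couple to Gi/o proteins, lower cyclic AMP and can open inward rectifier potassium channels, whereas *Adora2a* and *Adora2b* encode receptors that couple to Gs and raise cyclic AMP. In the DRG and the dorsal spinal cord the A1 receptor is best known for damping transmission from nociceptive afferents, and adenosine is cleared by uptake through nucleoside transporters, by adenosine kinase and by adenosine deaminase (*Ada*).

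The sequences just upstream of *Adora1* and *Acpp* are shown because *Adora1* had the largest difference between the genotypes among the members and *Acpp* the highest level per length. They are the 250 bases before an annotated start in RefSeq (GRCm38.p6), 5′ to 3′ along the gene, with every match to GGGCGG on either strand in capitals. This hexamer is the core of the GC box known as a site for Sp and KLF factors. The *Adora1* window lies at chr1:134235458-134235707 on the minus strand and the *Acpp* window at chr9:104337723-104337972 on the minus strand.
*Adora1*: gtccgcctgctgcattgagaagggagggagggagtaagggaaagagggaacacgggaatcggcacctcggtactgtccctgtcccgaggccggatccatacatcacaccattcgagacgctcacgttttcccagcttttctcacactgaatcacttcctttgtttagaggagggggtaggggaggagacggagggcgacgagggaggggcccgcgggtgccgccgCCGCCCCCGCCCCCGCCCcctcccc
*Acpp*: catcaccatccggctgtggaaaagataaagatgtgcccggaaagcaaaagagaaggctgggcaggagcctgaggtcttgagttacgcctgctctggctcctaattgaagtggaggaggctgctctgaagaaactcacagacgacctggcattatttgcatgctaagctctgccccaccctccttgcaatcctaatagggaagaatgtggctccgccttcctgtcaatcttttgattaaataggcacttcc

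The *Adora1* window had 64.4% G and C, 19 CpG dinucleotides and 3 matches that lie end to end, whereas the *Acpp* window had 50.4% G and C, 5 CpG dinucleotides and 0 matches. A second annotated start of *Adora1* (chr1:134234857-134235106) had 0 matches at 65.2% G and C. Of all 32851 RefSeq windows of this length, 32.7% held the hexamer, and their median content of G and C was 52.4%. For the members, 11 windows of 9 genes were at hand. *Adora2b* held 6 matches, *Nt5e* 4, *Entpd2* 2 and *Ada* 1, while those of *Entpd1*, *Entpd3* and *Adora3* held 0. *Adora2a* was not matched. These matches describe letters only and were not tested as binding sites.

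Compared per length of exon, as RPKM (the CPM divided by kilobases of exon), the members spread over a wide order. *Acpp* stood at 28.2 ± 6.28 RPKM (SD, n = 5) in control embryos and *Entpd2* at 24.3 ± 1.38 RPKM (SD, n = 5), and they did not separate, with *Acpp* above *Entpd2* in 5 of 10 libraries. All other members were well below them. The next levels were those of *Entpd1* at 6.32 ± 0.301 RPKM (SD, n = 5), *Entpd3* at 5.13 ± 1.79 RPKM (SD, n = 5), *Adora1* at 3.80 ± 0.701 RPKM (SD, n = 5) and *Nt5e* at 3.69 ± 0.750 RPKM (SD, n = 5). Last came *Adora2a* at 2.08 ± 0.393 RPKM (SD, n = 5), *Ada* at 1.52 ± 0.243 RPKM (SD, n = 5), *Adora2b* at 1.39 ± 0.339 RPKM (SD, n = 5) and *Adora3* at 0.014 ± 0.016 RPKM (SD, n = 5).

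Among neighbours in this order, the ranges over all 10 libraries were apart only between *Entpd2* and *Entpd1*, between *Nt5e* and *Adora2a*, and between *Adora2b* and *Adora3*. *Adora2a* was above *Ada* in 10 of 10 libraries although their ranges overlapped, *Entpd3* was above *Adora1* in 9 and *Entpd1* above *Entpd3* in 7. *Adora1* and *Nt5e* changed places between the genotypes, with mean levels of 3.15 and 3.80 RPKM in *WD1* cKO embryos, and so did *Ada* and *Adora2b*, with 1.36 and 1.47 RPKM. Neither pair had ranges that were apart.

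**Figure D1:**
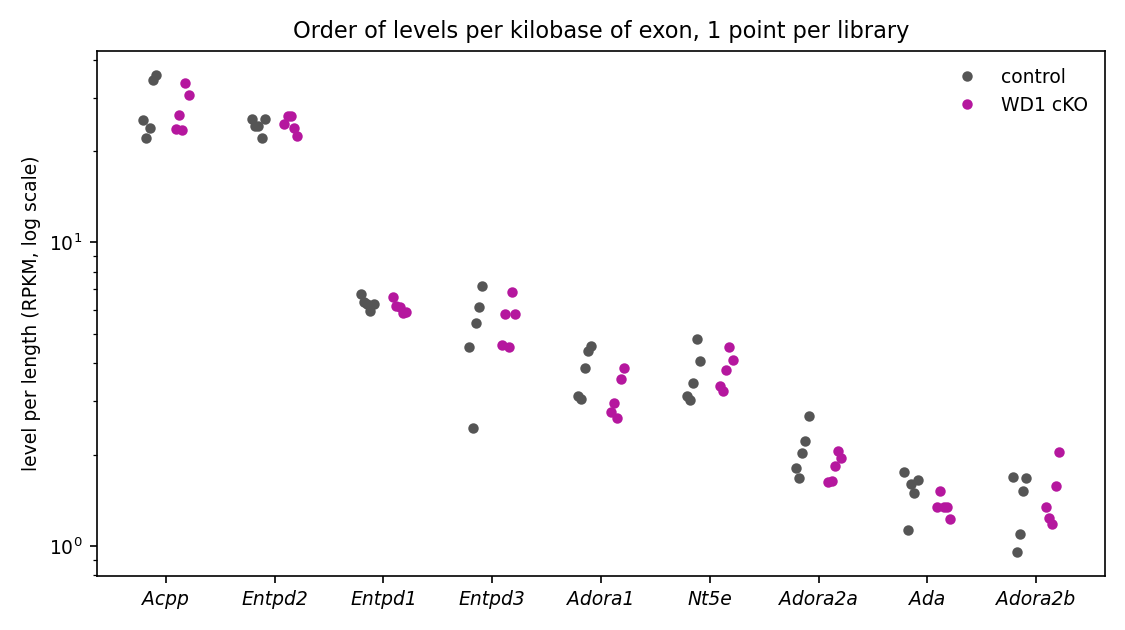
Level per length (RPKM, log axis) of 9 members in each library, with control libraries in grey and *WD1* cKO libraries in magenta and the genes ordered by their mean in control embryos. *Acpp* and *Entpd2* lie above 22 RPKM in every library and all others below 8 RPKM, and *Adora3*, at 3 counts or fewer in each library, is not drawn.

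Within each step of the pathway 1 gene had the highest RNA level per length. *Adora1* made up 52.2% ± 3.24 (SD, n = 5) of the summed RPKM of the 4 receptors in control and 48.8% ± 1.50 (SD, n = 5) in *WD1* cKO embryos. *Adora2a* made up 28.5% and 28.4% and *Adora2b* 19.1% and 22.7%. *Acpp* made up 88.4% ± 0.977 (SD, n = 5) of *Nt5e* and *Acpp* together in control and 87.8% ± 1.09 (SD, n = 5) in *WD1* cKO embryos. *Entpd2*, which prefers ATP over ADP and is known from glia of peripheral ganglia, made up 68.1% ± 3.49 (SD, n = 5) of the 3 *Entpd* genes in control and 67.8% ± 2.41 (SD, n = 5) in *WD1* cKO embryos. Both the level per length and the share of *Entpd2* are uncertain, since 612 of its 2128 exon bases are shared with *Npdc1* on the same strand. The ranges of these shares overlapped between the genotypes for each gene.

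*Adora1*, the gene of the A1 receptor, was at 18.1, 17.6, 22.4, 25.4 and 26.4 CPM in control replicates 1 to 5 and at 15.9, 17.1, 15.3, 20.5 and 22.3 CPM in *WD1* cKO replicates 1 to 5, from raw counts of 370 to 689 and 378 to 773. The groups overlapped, since *WD1* cKO replicates 4 and 5 were above control replicates 1 and 2, although 3 of 5 *WD1* cKO libraries were below every control library. The mean was 22.0 ± 4.05 CPM (SD, n = 5) in control and 18.2 ± 3.04 CPM (SD, n = 5) in *WD1* cKO embryos. The log2 fold change, given throughout as *WD1* cKO minus control, was -0.27 with a standard error of 0.14 and a 95% interval from -0.57 to 0.02, and it did not pass the test (adjusted p = 1.00 over all genes tested, from the quasi-likelihood test of edgeR with the adjustment of Benjamini and Hochberg). An exact two-sided permutation test of the 5 against 5 libraries gave p = 0.127, where the smallest p it can give is 0.00794. A fold change of this size or larger, in either direction, was found for 1231 of the genes tested, or 7.04%. Reads of *Adora1* are uncertain where 1162 of its exon bases lie opposite *Mybph*, which had 48 counts over all 10 libraries. In bulk RNA, fewer cells of a type and less RNA per cell cannot be told apart. By immunostaining at E18.5 the study found no difference between these genotypes in the number of neurons or in general subtype markers. Among neurons stained for TrkB (*Ntrk2*), however, it found a smaller share with Calretinin or Mef2C in *WD1* cKO embryos and a larger share with Shox2. Cells with *Chodl* RNA were also more numerous there. The study gives no count of cells with *Adora1*.

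Within each set of replicate numbers the *Adora1* levels of the groups did not overlap. In replicates 1 to 3 the control libraries spanned 17.6 to 22.4 CPM and the *WD1* cKO libraries 15.3 to 17.1 CPM, and in replicates 4 and 5 they spanned 25.4 to 26.4 CPM and 20.5 to 22.3 CPM. *Adora1* was the 1 member below control in this way in both sets, as were 1.47% of all genes tested, with a further 1.42% above control in both sets and 0 members among them. With the set of replicate numbers as a term in the model, its log2 fold change was -0.27 with a standard error of 0.067 and a 95% interval from -0.41 to -0.12 (adjusted p = 0.455, edgeR), past the cut-off used by the study, which asks for an unadjusted p-value below 0.005 with a log2 fold change over 0.15 in either direction. With no term added, *Adora1* did not pass this cut-off with edgeR (unadjusted p = 0.0685) or with DESeq2's Wald test (unadjusted p = 0.0520). The log2 fold change of *Adora1* was -0.27 (standard error 0.10, adjusted p = 0.926) in a fit of replicates 1 to 3 alone and -0.27 (standard error 0.080, adjusted p = 0.676) in a fit of replicates 4 and 5 alone. The difference between the genotypes was thus the same size with and without the term, and its standard error was smaller with it. Within replicates 1 to 3, control replicate 3 was the highest control library at 22.4 CPM, against 18.1 and 17.6 CPM. That library also had summed spinal cord markers of 18.4 CPM, against 0.0736 to 0.528 CPM in the other control libraries. A fit of this set without control replicate 3 was not run.

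The other Gi/o-coupled receptor gene, *Adora3*, was all but absent from the counts. It had 2, 3, 0, 1 and 0 counts in control replicates 1 to 5 and 0, 0, 0, 2 and 2 in *WD1* cKO replicates 1 to 5. No library was above 3 counts, which corresponds to 0.0866 to 0.152 CPM depending on the library, so *Adora3* was left out of the main fit and a difference was not detectable at this depth. In the edgeR fit with no filter on low counts its log2 fold change was -0.72, with a 95% interval from -2.78 to 1.35. *Adora3* shares 779 exon bases with *Tmigd3* on the same strand, which had 1 count over all 10 libraries.

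The Gs-coupled receptor genes were lower in level and went different ways. *Adora2a* was at 5.51, 5.12, 6.21, 6.77 and 8.18 CPM in control and at 4.97, 5.02, 5.60, 6.30 and 5.98 CPM in *WD1* cKO replicates 1 to 5. The groups overlapped, and control replicate 5 was the highest of the 10 libraries. The log2 fold change was -0.19 with a standard error of 0.13 and a 95% interval from -0.47 to 0.08 (adjusted p = 1.00, edgeR), and it was -0.087 without control replicate 5. The exact permutation test gave p = 0.230. It was -0.11 in replicates 1 to 3 and -0.29 in replicates 4 and 5, with groups that overlapped in replicates 1 to 3 and did not in replicates 4 and 5. *Adora2b*, the gene of the receptor with the lower affinity for adenosine, was at 3.12, 1.76, 2.02, 2.80 and 3.08 CPM in control and 2.49, 2.28, 2.19, 2.90 and 3.75 CPM in *WD1* cKO replicates 1 to 5. These libraries overlapped throughout, from counts of only 40 to 130, and the log2 fold change was 0.093 with a 95% interval from -0.34 to 0.52 (adjusted p = 1.00, edgeR). It turned to -0.015 without control replicate 2 and to -0.065 without *WD1* cKO replicate 5.

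The ratio of *Adora1* to *Adora2a* varied between libraries, and its ranges overlapped between the genotypes. *Adora1* was 1.83 ± 0.115 times (SD, n = 5) the RPKM of *Adora2a* in control embryos and 1.73 ± 0.194 times (SD, n = 5) in *WD1* cKO embryos, with ranges of 1.71 to 1.98 and 1.44 to 1.98.

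**Figure D2:**
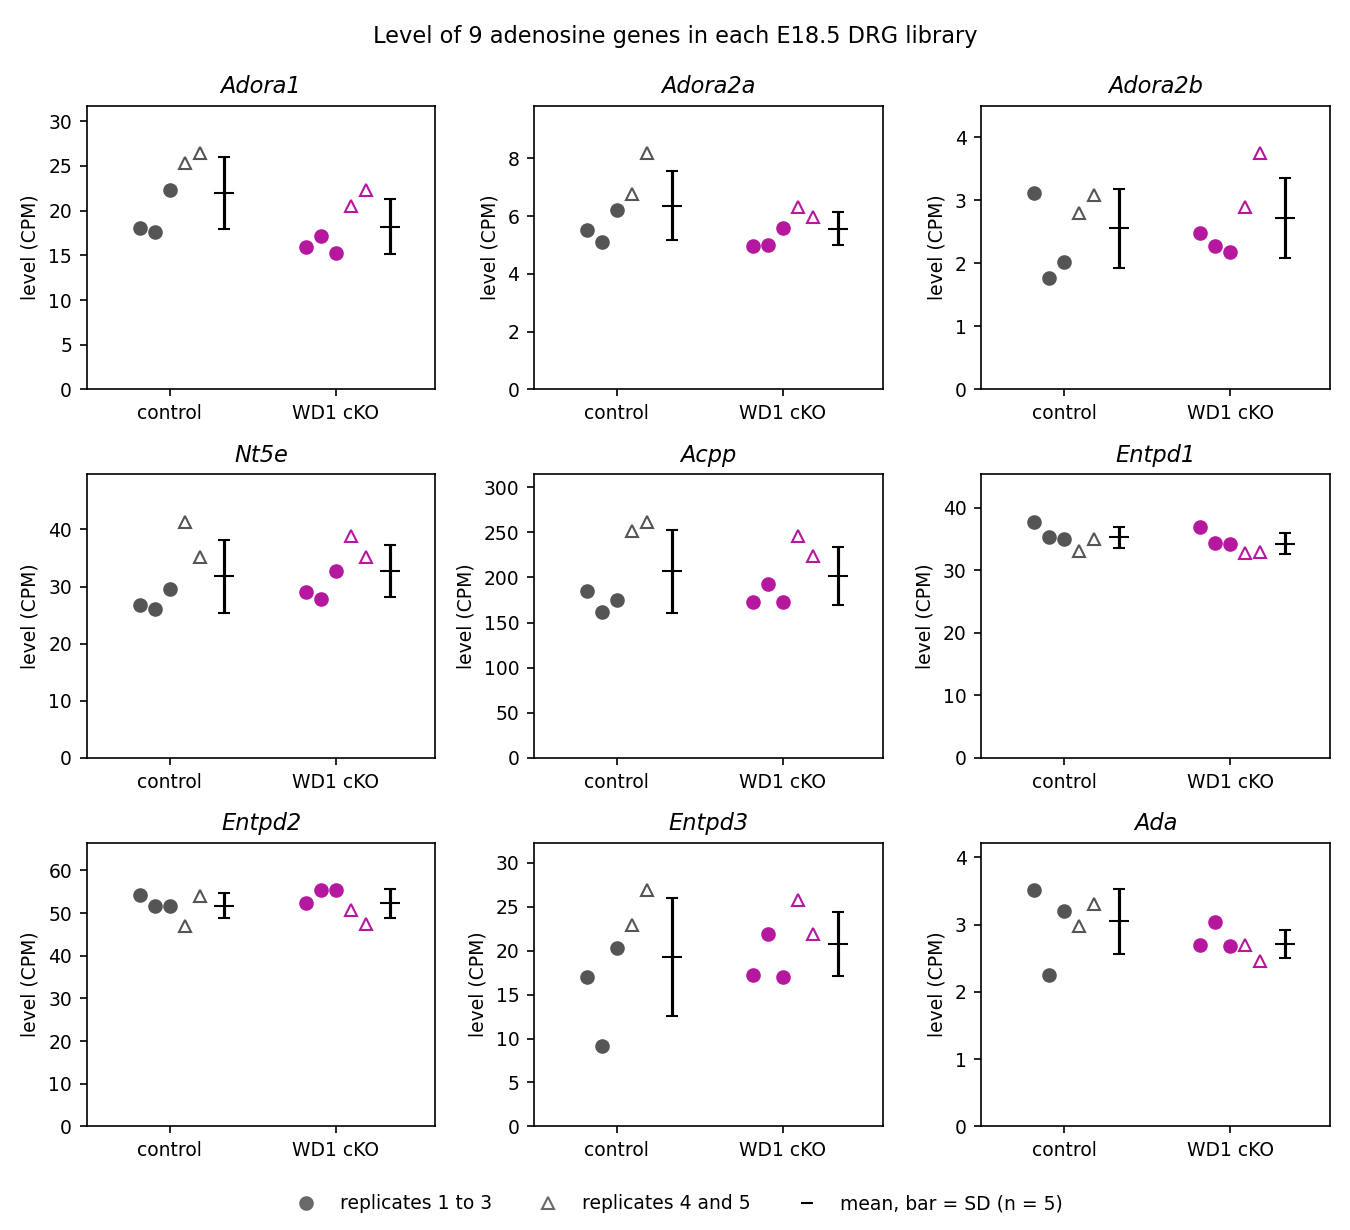
Level (CPM) of 9 members in each library, with each axis starting at 0, filled circles for replicates 1 to 3, open triangles for replicates 4 and 5, and the mean with its SD (n = 5) beside each group. The groups overlap for every gene, and for *Adora1*, *Adora2a*, *Nt5e* and *Acpp* the triangles lie above the circles in both groups.

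Of the enzymes that make adenosine from AMP, neither passed the test between the genotypes. *Acpp* was at 185, 162, 175, 251 and 262 CPM in control and at 173, 192, 173, 246 and 224 CPM in *WD1* cKO replicates 1 to 5, so that the replicates 4 and 5 were the highest in either group. Its log2 fold change was -0.040 with a standard error of 0.14 and a 95% interval from -0.35 to 0.27 (adjusted p = 1.00, edgeR). The sign changed between the sets, at 0.041 (adjusted p = 0.965) in replicates 1 to 3 and -0.13 (adjusted p = 0.762) in replicates 4 and 5, and that difference was not tested.

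*Nt5e* was at 26.8, 26.0, 29.5, 41.4 and 35.1 CPM in control and 29.0, 27.8, 32.7, 38.9 and 35.2 CPM in *WD1* cKO replicates 1 to 5. Here too replicates 4 and 5 were the high libraries of both groups, and the groups overlapped almost fully. *Nt5e* had a log2 fold change of 0.039 with a 95% interval from -0.24 to 0.32 (adjusted p = 1.00, edgeR). It was -0.052 in replicates 4 and 5 alone. The level of *Acpp* was 7.65 ± 0.758 times (SD, n = 5) that of *Nt5e* per length in control and 7.24 ± 0.707 times (SD, n = 5) in *WD1* cKO embryos.

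The genes upstream in the pathway, which encode the enzymes that hydrolyse ATP and ADP, differed in how steady they were. *Entpd1* (CD39), known from vascular and immune cells, spanned 33.1 to 37.8 CPM in control and 32.7 to 37.0 CPM in *WD1* cKO libraries, with a log2 fold change of -0.042 and a 95% interval from -0.15 to 0.06 (adjusted p = 1.00, edgeR). *Entpd2* ranged from 47.0 to 54.1 CPM and from 47.6 to 55.4 CPM, with a log2 fold change of 0.017 and a 95% interval from -0.098 to 0.13 (adjusted p = 1.00, edgeR). These were the narrowest intervals among the members. Counts of *Entpd2* are uncertain where it shares 612 exon bases on the same strand with *Npdc1*, which had 70008 counts over all 10 libraries.

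*Entpd3*, known from nociceptive sensory neurons, had the largest standard error of the members with all 10 libraries. It was at 17.0, 9.17, 20.3, 22.9 and 26.9 CPM in control and 17.3, 21.9, 17.0, 25.7 and 21.9 CPM in *WD1* cKO replicates 1 to 5, and control replicate 2, with 208 counts, was the lowest of all 10 libraries. *Entpd3* had a log2 fold change of 0.10 with a standard error of 0.22 and a 95% interval from -0.38 to 0.59 (adjusted p = 1.00, edgeR). Without control replicate 2 it was -0.076, with a standard error of 0.15, below that of *Adora2b* in the same fit (0.19).

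*Ada*, which turns adenosine into inosine, was at 3.51, 2.25, 3.20, 2.98 and 3.30 CPM in control replicates 1 to 5 and between 2.45 and 3.04 CPM in the *WD1* cKO libraries, from counts of 51 to 85. Control replicate 2 was the lowest of all libraries and the other 4 control libraries were above 4 of the 5 *WD1* cKO libraries. The log2 fold change was -0.17 with a 95% interval from -0.44 to 0.11 (adjusted p = 1.00, edgeR). Without control replicate 2 it was -0.26.

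Counted over the members, 9 of 10 passed the filter on low counts. The exact permutation test gave p from 0.127 for *Adora1* to 0.857 for *Acpp*. Of these 9, 5 had a log2 fold change below 0 and 4 above 0, where 49.9% of all genes tested were below 0. None reached an adjusted p-value under 0.05 with edgeR, as did 0.04% of the genes tested, and 0 had an unadjusted p-value under 0.05, as did 4.5%. DESeq2's Wald test likewise gave 0 members at either level. None passed the study's cut-off, as did 0.383%, and none had groups that did not overlap, as did 1.06%. The median log2 fold change of the 9 was -0.040 and the median absolute value 0.093, beside 0.00022 and 0.053 over all genes tested.

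With the set of replicate numbers as a term, 1 of 9 members passed the study's cut-off, and this was *Adora1*, lower in *WD1* cKO embryos. In that fit 0.669% of the genes tested passed it, 0.326% as lower. The same 1 member had an unadjusted p-value under 0.05, as did 7.33% of the genes tested, and 0 members had an adjusted p-value under 0.05, as did 0.0629%. The intervals of the other 8 members included 0 in this fit.

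**Figure D3:**
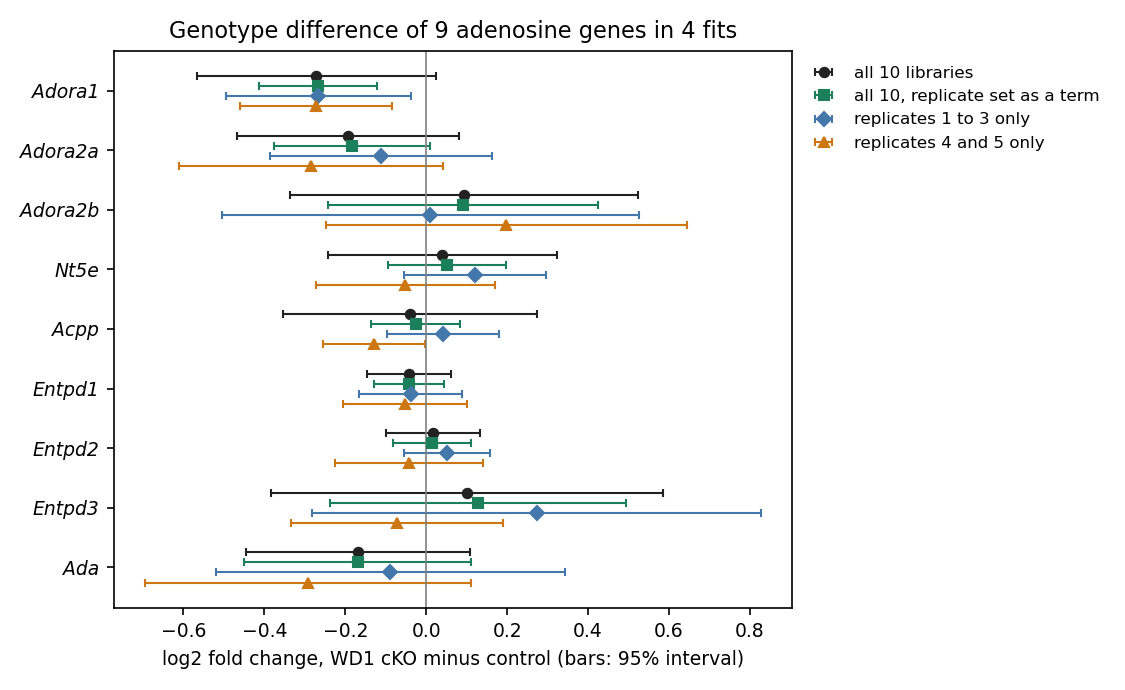
Log2 fold change (*WD1* cKO minus control) of 9 members in 4 fits with edgeR, as points with 95% intervals, from all 10 libraries, from all 10 with the set of replicate numbers as a term, from replicates 1 to 3 and from replicates 4 and 5. *Adora1* lies near -0.27 in all 4 fits and its interval excludes 0 in the last 3, whereas the points of *Nt5e*, *Acpp*, *Entpd2* and *Entpd3* lie on both sides of 0. The interval of *Acpp* also excludes 0 in replicates 4 and 5, from -0.25 to -0.0021.

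Several members differed more between the sets of replicate numbers than between the genotypes. *Adora1*, *Adora2a*, *Nt5e* and *Acpp*, 4 of the 9, were higher in replicates 4 and 5 than in each of replicates 1 to 3 in both groups, as were 8.24% of the genes tested. No member was lower in this way in both groups, as were 7.15%. The mean level in replicates 4 and 5 over that in replicates 1 to 3 was 1.34 in control and 1.33 in *WD1* cKO embryos for *Adora1*, 1.47 and 1.31 for *Acpp*, 1.39 and 1.24 for *Nt5e* and 1.33 and 1.18 for *Adora2a*. *Entpd3* was above replicates 1 to 3 in this way in control libraries only, since *WD1* cKO replicate 5 lay just under *WD1* cKO replicate 2. *Entpd1* and *Entpd2* had ratios of 0.945 and 0.935 and of 0.963 and 0.903.

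Some of the marker lists fixed for the cell types of the ganglion moved with the same split in both groups and others did not. Their part in the members' levels was not tested. The summed level of 8 nociceptor genes in replicates 4 and 5 over replicates 1 to 3 had a ratio of 1.18 in control and 1.06 in *WD1* cKO embryos. In control libraries the sets were apart, at 3035 to 3343 CPM in replicates 1 to 3 against 3765 to 3860 CPM. In *WD1* cKO libraries they overlapped, at 3156 to 3462 CPM against 3371 to 3611 CPM. Of the 8 genes, 4 were higher in replicates 4 and 5 in both groups while 2 were lower. The 6 genes of A-fibre low-threshold mechanoreceptors (A-LTMR) had ratios of 1.11 and 0.963, the 7 glial genes 1.10 and 1.15, and the 8 macrophage genes 1.09 and 1.06. Endothelial genes had ratios of 0.904 and 0.845, mural and connective tissue genes 0.830 and 0.869, and blood genes 0.0978 and 0.276. Nearer to 1 were the pan-neuronal genes, with 0.966 and 0.969, and the cell cycle genes, with 0.961 and 1.04. None of these lists had a gene past the study's cut-off between the genotypes except A-LTMR, with 1 higher gene (*Shox2*). The summed nociceptor level was 3467 ± 340 CPM (SD, n = 5) in control and 3376 ± 173 CPM (SD, n = 5) in *WD1* cKO embryos, and the summed A-LTMR level 1065 ± 66.0 CPM (SD, n = 5) and 1095 ± 40.5 CPM (SD, n = 5). Most of the A-LTMR sum was *Ret*, at 688 to 848 CPM in control and 756 to 851 CPM in *WD1* cKO libraries. The study also places *Ret* in non-peptidergic nociceptors. Single genes of this list went different ways, with *Ntrk2* at 206 to 236 CPM and 168 to 208 CPM. *Shox2* was at 13.7 to 17.4 CPM and 17.2 to 20.2 CPM.

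**Figure D4:**
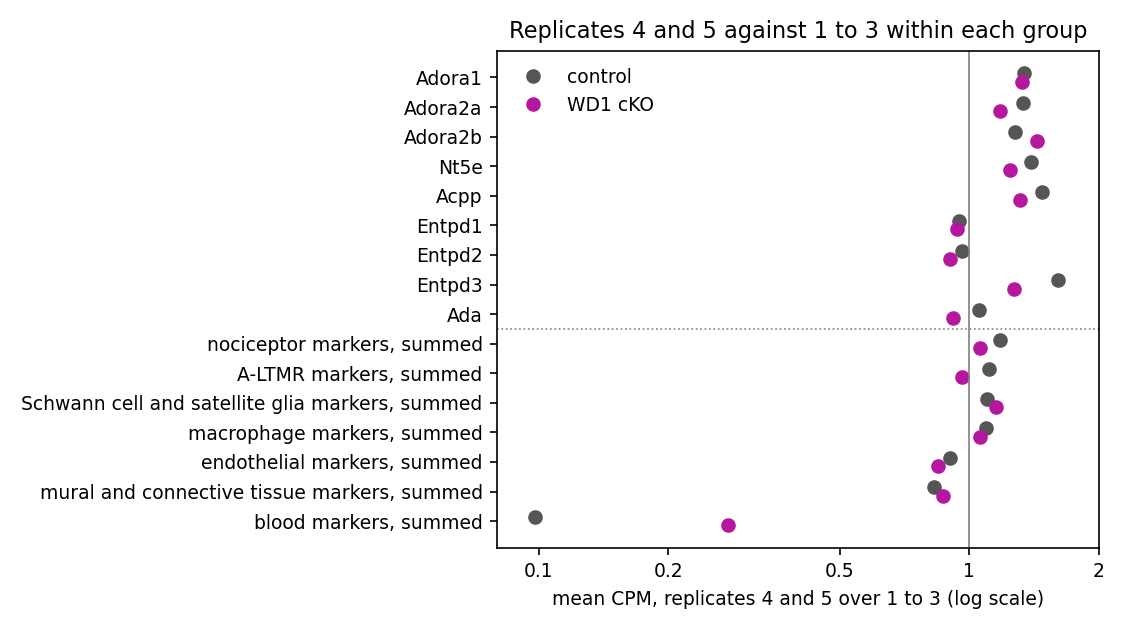
Mean level (CPM) in replicates 4 and 5 over that in replicates 1 to 3, on a log axis, for 9 members above the dotted line and for summed marker lists below it, with control in grey and *WD1* cKO in magenta. *Entpd1* and *Entpd2* lie just below 1, the 3 receptor genes drawn and *Nt5e*, *Acpp* and *Entpd3* above 1 in both groups, and blood markers far below 1.

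The genes whose level was most like that of *Adora1* over the 10 libraries, by Pearson's r of log2 CPM, were *Ppm1j* (0.965), *Ppp2r1a* (0.954), *H2-D1* (0.949), *C130060K24Rik* (0.940) and *Pacsin1* (0.938). All 5 were higher in replicates 4 and 5 in both groups, so these values share the split of the libraries as well as the libraries themselves. By deviations from the group means the first 5 were *Pitpnm1* (0.984), *Sgsm1* (0.982), *Caly* (0.981), *S100a13* (0.978) and *H2-K1* (0.977), which were also higher in replicates 4 and 5 in both groups. Among the members, *Adora2a* came nearest to *Adora1* by log2 CPM, with r of 0.879 and rank 63, followed by *Acpp* with 0.789 and rank 333. By deviations from the group means the order of the pair was the other way round, with *Acpp* at 0.884 and *Adora2a* at 0.852, followed by *Nt5e* at 0.808 and *Entpd3* at 0.807. *Entpd1* and *Entpd2* ran against *Adora1* by either measure, with -0.41 and -0.56 by log2 CPM and -0.71 and -0.59 by deviations.

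The rest of the pathway was described with 7 lists that hold 67 genes, of which 56 were tested. Of these, 26 had a log2 fold change below 0 and 30 above, where 49.9% of all genes tested were below. With edgeR 0 reached an adjusted p-value under 0.05, as did 0.04% of all genes tested, and 0 passed the study's cut-off, as did 0.383%. With the set of replicate numbers as a term, 2 of the 56 passed it (*Gda* and *Enpp1*), as did 0.669% of all genes tested. The list medians ran from -0.049 for ATP release to 0.047 for the other nucleotidases, beside 0.00022 over all genes tested.

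Among 12 tested genes of adenosine removal and salvage, 5 were below 0 and 7 above. *Gda*, which deaminates guanine, had the largest difference. It was at 46.1, 49.9, 37.5, 39.6 and 48.7 CPM in control and 63.8, 52.7, 51.4, 51.0 and 52.7 CPM in *WD1* cKO replicates 1 to 5, so that the groups did not overlap. This was so for 1.06% of all genes tested. The groups of *Adal*, named here after its values were seen, did not overlap either. They spanned 18.6 to 19.7 CPM in control and 19.8 to 21.5 CPM in *WD1* cKO libraries. The log2 fold change of *Gda* came to 0.29 (standard error 0.087, adjusted p = 1.00, edgeR), and with the set of replicate numbers as a term it passed the study's cut-off (adjusted p = 0.487). Adenosine kinase (*Adk*), named here for its role, which returns adenosine to AMP inside cells, was at 44.4 ± 8.77 CPM (SD, n = 5) in control and 45.0 ± 7.43 CPM (SD, n = 5) in *WD1* cKO embryos. *Ahcyl1*, a relative of S-adenosylhomocysteine hydrolase, had the highest level of the list, at 218 CPM in both groups.

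Among 9 tested genes of other extracellular or lumenal nucleotidases, 2 were below 0 and 7 above. *Enpp1*, an ectoenzyme that cuts ATP to AMP and pyrophosphate, was at 6.88, 5.65, 6.26, 8.06 and 8.71 CPM in control and at 8.13, 9.42, 7.35, 9.96 and 11.4 CPM in *WD1* cKO replicates 1 to 5. The groups overlapped when pooled, but within replicates 1 to 3 and within replicates 4 and 5 the groups did not overlap. Of all genes tested, 1.42% were above control in this way in both sets. The log2 fold change of *Enpp1* came to 0.38 (standard error 0.14, adjusted p = 1.00, edgeR), and with the set as a term it was 0.39 (standard error 0.087, adjusted p = 0.327), past the study's cut-off. *Cd38*, an NAD-consuming ectoenzyme named here after its values were seen, was at 3.83 ± 0.457 CPM (SD, n = 5) in control and 4.72 ± 0.481 CPM (SD, n = 5) in *WD1* cKO embryos (log2 fold change 0.30, adjusted p = 1.00, edgeR). *Cant1*, a calcium-activated nucleotidase, had the highest level, at 55.7 CPM in control and 53.1 CPM in *WD1* cKO embryos.

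The 6 tested cytosolic nucleotidases divided into 3 below and 3 above 0, with *Nt5c2* highest at 68.3 and 67.4 CPM and *Nt5c1a* furthest from 0 at a log2 fold change of 0.14 and under 1 CPM in both groups. The 4 tested nucleoside transporters divided into 2 below and 2 above 0. *Slc29a4* was highest, at 76.7 CPM in control and 77.5 CPM in *WD1* cKO embryos, and *Slc29a2* was furthest from 0, with a log2 fold change of -0.10. The groups of *Slc29a2* did not overlap, at 15.2 to 15.6 CPM in control and 13.3 to 14.9 CPM in *WD1* cKO libraries. The same held for 1.06% of all genes tested. Of 4 tested genes of ATP release, 3 were below 0 and 1 above, with *Panx1*, a channel for ATP, highest at 110 and 108 CPM. *Panx3*, under 1 CPM in both groups, had the largest log2 fold change of this list at -0.23.

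Downstream of the receptors, 7 tested genes of Gi/o signalling divided into 4 below and 3 above 0, and 14 of Gs and adenylyl cyclase signalling into 7 and 7. *Gnao1*, the alpha subunit through which the A1 receptor can act in neurons, was the highest, at 813 ± 46.3 CPM (SD, n = 5) in control and 764 ± 20.7 CPM (SD, n = 5) in *WD1* cKO embryos, with a log2 fold change of -0.090 (adjusted p = 1.00, edgeR). *Gnai2*, named after its values were seen, was the 1 gene of the list with an unadjusted p-value under 0.05, as had 4.5% of all genes tested. Its log2 fold change was -0.16 (adjusted p = 1.00, edgeR). *Kcnj9*, a subunit of inward rectifier channels opened by G proteins, was under 1 CPM and had the largest log2 fold change, -0.25. In the Gs list *Prkacb*, a catalytic subunit of protein kinase A, was highest at 330 and 350 CPM, and the adenylyl cyclase gene *Adcy8* was furthest from 0 at -0.13.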

How the data were processed

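Bulk RNA of E18.5 mouse DRG was measured in 5 control and 5 *WD1* cKO libraries. Per the labels and the methods of the study, the authors prepared stranded mRNA libraries, demultiplexed with bcl2fastq 2.20.0.422, aligned to GRCm39 with STAR 2.7.8a and counted with featureCounts 2.0.1, and they deposited raw counts per gene. The strand setting of the counting and the handling of reads with several matches are not given in the sources used here, so overlapping genes are uncertain.

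Counts were scaled by TMM and compared with edgeR 4.0.16 in R 4.3.3 (quasi-likelihood test, no covariate, Benjamini-Hochberg adjustment over 17490 genes). CPM use TMM-scaled totals. RPKM use exon lengths of GENCODE M21 (GRCm38), which also gave symbols for 52081 of 55414 identifiers and overlaps. Exact permutation tests were two-sided on means of log2 CPM (prior count 1). Replicates of a group were not copies of 1 library (chi-square over degrees of freedom 4.33 to 15.7), and which embryos share a litter is not given. The p-values therefore weigh a difference against the spread between these libraries, not between litters. With the set of replicate numbers as a term this is the spread within the sets. Named were the members, genes overlapping them, *Dach1*, the 5 genes most like *Adora1* by either measure and, per pathway list, genes past a cut-off in the fit or in the fit with the set as a term, the highest and the one with the largest fold change. The members and lists were chosen with earlier results of these data known. The fit was tested on simulated data. Alternatives were DESeq2 1.42.0, DESeq2's size factors in edgeR, no filter, a mean count of at least 100, a replicate block, the set of replicate numbers as a term, each set alone and each library left out.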

Additional observations from a re-analysis of the deposited data

Results flagged for a closer look

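None of the 9 tested members had a library that stood apart from the other 4 of its group by the gap divided by the group's range. Over the members and marker lists 44 groups were examined and 3 had such a library, where about 2.2 are due by chance at 1 in 20. All 3 were marker lists and replicate 3 of a group. Control replicate 3 had summed proprioceptor markers of 462 CPM, against 574 to 618 CPM in the other control libraries, and summed spinal cord markers of 18.4 CPM, against 0.0736 to 0.528 CPM. *WD1* cKO replicate 3 had summed muscle markers of 94.8 CPM, where the rest of that group had 45.1 to 58.7 CPM. In the pooled fit, *Adora1* had a log2 fold change of -0.27 when control replicate 3 was dropped. Dropping *WD1* cKO replicate 3 instead gave -0.21. The loss of control replicate 3 could hardly move the pooled value, since its *Adora1* level of 22.4 CPM was near the control mean of 22.0 CPM. That fit therefore does not show whether the difference within replicates 1 to 3 depends on this library, the highest control there.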

How the results depend on the processing

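*Adora1*, *Adora2a*, *Entpd1*, *Ada* and *Dach1* kept their direction under all alternatives run for them, and the 9 tested members and *Dach1* kept their side of the adjusted threshold. For *Adora1* the log2 fold change ranged from -0.36 to -0.20 and the adjusted p from 0.131 to 1.00 over 19 alternatives. The lowest adjusted p came from DESeq2 with the set of replicate numbers as a term, an alternative added after seeing the data, where *Adora1* also passed the study's cut-off. Its unadjusted p-value was under 0.05 in this fit, with the set as a term or the replicate block in edgeR, in either set alone, with no filter on low counts and without control replicate 1, control replicate 2 or *WD1* cKO replicate 5. With edgeR, that of *Acpp* was under 0.05 in replicates 4 and 5 alone and that of *Ada* without control replicate 2. *Nt5e*, *Acpp*, *Entpd2* and *Entpd3* turned to -0.052, 0.041, -0.042 and -0.072 in 1 set alone (*Acpp* in replicates 1 to 3, the others in replicates 4 and 5), and across single libraries left out they ranged from -0.027 to 0.16, -0.12 to 0.059, -0.016 to 0.048 and -0.076 to 0.25, and *Adora2b* from -0.065 to 0.17. The cause was not tested. A mean count of at least 100 left *Adora2b* and *Ada* untested.

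Of all genes, 7 had an adjusted p-value under 0.05, against 4 under the mean count filter of 100, 11 with the set as a term, 3 in either set alone, 19 in DESeq2's Wald test, 33 in DESeq2 with the set as a term and 3 to 6 with a library left out. The study's cut-off was passed by 67, against 128 with no filter, 117 with the set as a term, 142 in replicates 4 and 5 alone and 120 in DESeq2 with the set as a term. The medians of the pathway lists and the members' levels stayed within their spread.

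Same-numbered libraries of the 2 groups were not paired by the labels, and the correlation of their deviations from the group means ran from 0.0404 to 0.390, so the numbers were not taken as pairs. As a hint from the data, 7 of 10 libraries were most like their own number. With the replicate number as a block, 8 genes reached the adjusted threshold and 133 the study's cut-off, and *Adora1*, with a log2 fold change of -0.27 (adjusted p = 0.442), was among the latter.

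Depth limited *Adora3*, at 3 counts or fewer in every library, and to a lesser degree *Adora2b* and *Ada*, at 40 to 130 and 51 to 85 counts.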
